A study of Mus musculus with 16 samples.

Results

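The 47 genes described here encode the chaperones and folding enzymes of the endoplasmic reticulum (ER) and the cytosol, the machinery that clears misfolded ER proteins, and the sensors and transcription factors of the associated stress responses. They were chosen by name, and all 47 were found among the 55357 genes of the series' count table. By role they were 14 ER chaperones and folding enzymes, 5 factors of ER-associated degradation, 4 genes of the unfolded protein response sensors and Xbp1, 6 genes of the ATF4 arm, 12 genes of HSF1 and the heat-inducible chaperones, 4 co-chaperones of HSP90 and HSP70, and 2 genes of the mitochondrial chaperonin. Counts were high enough to test for 45 of them, and 14421 genes passed the same filter. Asns and Hspa1a did not pass it.

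RNA-seq was run on 16 mouse liver samples in 4 groups of 4 libraries. AUG livers carried the telomerase RNA gene genotype labelled mTERC CUG/AUG, and AUG_WT livers were their wild-type group. In del7 livers, mTERC lacked the 7 nucleotides at positions 29 to 35, and del7_WT livers were the wild-type group of that line. All mice were untreated and were kept in ventilated cages with food ad libitum; age, sex and strain are not given in the sources used here, nor whether CUG/AUG names a codon change or a pair of alleles. Sample titles number the replicates 1 to 4 in every group without saying what a number stands for or whether the samples came from separate animals, so p-values here reflect the spread among the samples alone, and that spread may be technical. Titles also end in a running number from 1 to 16 over all samples. The source names number the wild types in 1 run across both lines. A replicate number therefore need not stand for the same thing in different groups.

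Secreted and membrane proteins fold in the ER with the help of chaperones such as BiP, and the hepatocyte, which secretes most plasma proteins, depends heavily on them. When unfolded proteins accumulate, IRE1, PERK and ATF6 in the ER membrane start the unfolded protein response: IRE1 splices Xbp1 mRNA, ATF6 is cut into an active transcription factor, and PERK phosphorylates eIF2 and so favours translation of ATF4. XBP1 and ATF6 raise transcription of ER chaperones and degradation factors, and ATF4 raises that of amino acid and cell death genes. In the cytosol HSF1 plays the matching part for HSP70, HSP90, HSP105 and their co-chaperones.

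Libraries held 7714058 to 14629022 counts in genes, and levels are given as CPM, the reads of a gene scaled to a common library size with TMM factors. Hepatocyte markers summed to between 111321 and 169268 CPM in 15 libraries and to 50990 CPM in AUG_WT replicate 1, which stood apart. That library also held 1434 CPM of B and plasma cell markers and 395 CPM of cell cycle markers, the highest sums of the series, and it had 35.0% of its reads outside annotated genes. AUG replicate 1 held 40.3 CPM of pancreatic acinar markers in sum, where the other 15 libraries held 3.23 to 7.90 CPM. The marker list of skeletal muscle summed to at most 1.54 CPM in all 16 libraries. Whether these marker levels play a part in the values below was not tested, and values that rest on either library are also given without it. In bulk tissue, fewer cells of a type and less RNA per cell cannot be told apart.

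**Figure D1:**
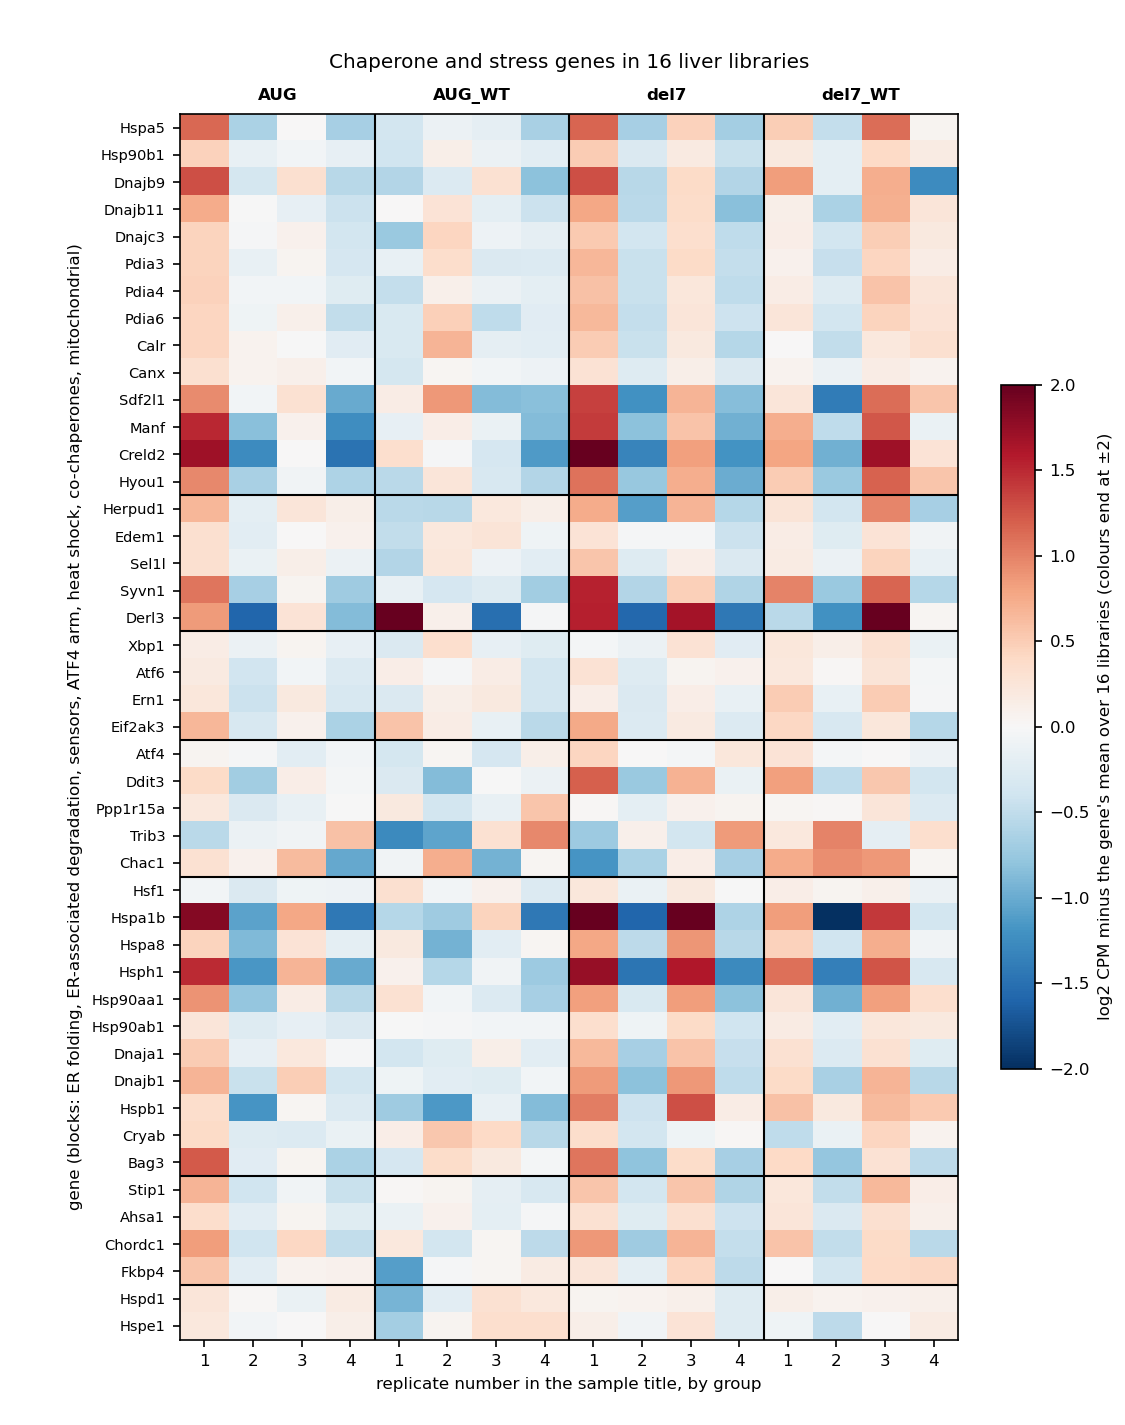
Log2 CPM of the 45 tested genes (rows, in blocks by role) in 16 libraries (columns, by group and replicate number), each gene centred on its own mean over the libraries. Red cells gather in replicates 1 and 3 and blue cells in replicates 2 and 4 of AUG and del7, whereas AUG_WT columns are paler and the ATF4 arm and mitochondrial blocks do not share the stripes.

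Among the 14 ER chaperones and folding enzymes, the widest range within a group went up to 10.7-fold for Creld2, and 7 genes, from Canx at 1.48-fold to Dnajc3 at 2.25-fold, stayed narrower. In AUG livers all 19 ER genes, counting folding and degradation, were highest in replicate 1, and in del7 livers 18 of 19 were, whereas replicate 1 was the highest library for 26.5% and 25.1% of all tested genes in those groups. In del7_WT livers 17 of the 19 peaked in replicate 3, which was the highest for 25.5% of all tested genes. AUG_WT livers differed in order, with 13 of 19 highest in replicate 2, the highest library there for 22.3% of all tested genes.

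Hspa5 encodes BiP, the HSP70 of the ER lumen and the chaperone that holds the sensors inactive. In the order of replicates 1 to 4, it had 1426, 414, 644 and 405 CPM in AUG livers against 498, 592, 569 and 409 CPM in AUG_WT livers, and 1442, 405, 883 and 399.9 CPM in del7 livers against 908, 461, 1402 and 665 CPM in del7_WT livers. Replicate 1 was the highest library of AUG and of del7 and replicate 3 that of del7_WT, AUG_WT spanned only 409 to 592 CPM, and all groups overlapped. Hsp90b1, the HSP90 of the ER also called GRP94, had 1162, 762, 815 and 759.6 CPM in AUG livers against 641, 915, 779 and 735 CPM in AUG_WT livers, and 1206, 695, 962 and 622 CPM in del7 livers against 970.0, 742, 1122 and 951 CPM in del7_WT livers. Its replicate 1 was again the highest of AUG and of del7, over a narrower range than that of Hspa5.

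Creld2, Manf and Sdf2l1 encode small ER proteins that are among the strongest targets of the unfolded protein response. Creld2 had 65.5, 8.31, 20.4 and 7.1 CPM in AUG livers against 25.5, 19.9, 15.9 and 9.1 CPM in AUG_WT livers, and 85.6, 7.99, 35.7 and 8.71 CPM in del7 livers against 35.1, 10.3, 65.4 and 24.5 CPM in del7_WT livers in replicates 1 to 4. The highest del7 library exceeded the lowest by 10.7-fold, the highest AUG library by 9.22-fold, the highest del7_WT library by 6.34-fold and the highest AUG_WT library by 2.81-fold. Manf, a secreted protein that binds BiP, had 151, 29.8, 56.3 and 22.3 CPM in AUG livers against 47.7, 58.4, 48.6 and 29.2 CPM in AUG_WT livers, and 141, 30.0, 78.9 and 27.4 CPM in del7 livers against 88.3, 37.2, 126 and 48.3 CPM in del7_WT livers. Sdf2l1, part of a BiP co-chaperone complex, had 39.7, 19.7, 25.3 and 10.1 CPM in AUG livers against 22.6, 37.4, 11.1 and 11.4 CPM in AUG_WT livers, and 53.3, 8.72, 32.9 and 11.2 CPM in del7 livers against 24.2, 7.62, 44.5 and 30.0 CPM in del7_WT livers. For both, AUG_WT replicate 2 was the highest of its group, and ranges of all groups overlapped.

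Hyou1, the large ER HSP70 relative that serves as exchange factor of BiP, had 422, 138, 206 and 140.2 CPM in AUG livers against 148, 254, 174 and 144 CPM in AUG_WT livers, and 456, 128, 358 and 108 CPM in del7 livers against 306, 129, 489 and 317 CPM in del7_WT livers. Replicates 1 and 3 were the highest libraries in AUG and del7, replicate 3 was the highest in del7_WT and replicate 2 in AUG_WT. Pdia4, a protein disulfide isomerase, had 408, 285, 283 and 248 CPM in AUG livers against 212, 315, 271 and 257 CPM in AUG_WT livers, and 443, 217, 345 and 207 CPM in del7 livers against 328, 247, 438 and 349 CPM in del7_WT livers. Its groups overlapped, with replicate 1 on top in AUG and del7, 2 in AUG_WT and 3 in del7_WT. Canx, the membrane lectin calnexin, had 685, 575, 588 and 530.4 CPM in AUG livers against 431, 566, 528 and 513 CPM in AUG_WT livers, and 669, 462, 599.7 and 452 CPM in del7 livers against 575, 508, 606 and 579.9 CPM in del7_WT livers. Within a group, its highest library exceeded its lowest by 1.19-fold to 1.48-fold. The other 6 genes of this role were Dnajb9 (24.9 to 148 CPM over the 16 libraries), Dnajb11 (31.2 to 96 CPM) and Dnajc3 (144 to 345 CPM), J-domain partners of BiP, Pdia3 (239 to 531 CPM) and Pdia6 (131 to 294 CPM), disulfide isomerases, and Calr (421 to 1006 CPM), the soluble lectin calreticulin. Of these, Dnajb9 had the widest range within a group, 4.33-fold at most.

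Of the 5 factors of ER-associated degradation, 3 had wide ranges. Herpud1, a membrane scaffold of that machinery, had 405, 224, 303 and 279 CPM in AUG livers against 177, 175, 295 and 279 CPM in AUG_WT livers, and 429, 119.6, 412 and 172 CPM in del7 livers against 305, 198, 503 and 161 CPM in del7_WT livers. Replicates 1 and 3 were on top in AUG and del7. Syvn1, the ubiquitin ligase HRD1, had 145, 43.9, 72.3 and 42.5 CPM in AUG livers against 62.4, 55.1, 58.1 and 43 CPM in AUG_WT livers, and 201.2, 46.3, 96.7 and 45.7 CPM in del7 livers against 138, 41.4, 155 and 46.9 CPM in del7_WT livers. In each of the 4 groups both replicate 1 and replicate 3 of Syvn1 lay above replicates 2 and 4, and the groups overlapped. Derl3, a channel component known for high levels in secretory cells, had 2.49, 0.316, 1.62 and 0.638 CPM in AUG livers against 6.03, 1.42, 0.341 and 1.28 CPM in AUG_WT livers, and 4.19, 0.323, 4.52 and 0.373 CPM in del7 livers against 0.841, 0.465, 6.62 and 1.34 CPM in del7_WT livers. It was near the bottom of the abundance range at a median of 0.657 CPM per kb, and its highest AUG_WT value stood in replicate 1, the library with 1434 CPM of B and plasma cell markers. Edem1 (202 to 358 CPM), a lectin that extracts misfolded glycoproteins, and Sel1l (148 to 326 CPM), the partner of HRD1, stayed within 1.80-fold in every group.

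Sensor genes ranged by at most 2.48-fold within a group. Eif2ak3 encodes the kinase PERK and had 42.6, 21.5, 28.5 and 17.2 CPM in AUG livers against 39.7, 29.8, 24.2 and 18.4 CPM in AUG_WT livers, and 45.6, 22.1, 30.4 and 22.1 CPM in del7 livers against 35.7, 21.5, 31.4 and 18 CPM in del7_WT livers. Replicates 1 and 3 lay above 2 and 4 in 3 groups, and in AUG_WT replicate 2 came second. Ern1, which encodes IRE1, had 133, 84, 131 and 90.7 CPM in AUG livers against 93.3, 123, 129.8 and 87.8 CPM in AUG_WT livers, and 125, 92.7, 125 and 103 CPM in del7 livers against 162, 102, 162 and 112 CPM in del7_WT livers. Its AUG_WT libraries, with replicate 4 lowest, overlapped those of every other group. Xbp1 had 165, 138, 156 and 134 CPM in AUG livers against 122, 189, 133 and 127 CPM in AUG_WT livers, and 146, 137, 181 and 128 CPM in del7 livers against 175, 162, 185 and 135 CPM in del7_WT livers. These counts take in spliced and unspliced Xbp1 mRNA alike, so they do not report its splicing. All 4 genes of this role, Atf6 (86.6 to 137 CPM) included, showed replicates 1 and 3 above 2 and 4 in 3 of 4 groups, the exception being AUG_WT for Xbp1, Ern1 and Eif2ak3 and del7 for Atf6.

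The ATF4 arm was split. Ddit3, the cell death factor CHOP, had 7.02, 3.26, 5.9 and 5.19 CPM in AUG livers against 4.35, 2.84, 5.34 and 4.95 CPM in AUG_WT livers, and 12.5, 3.15, 8.84 and 4.85 CPM in del7 livers against 9.6, 3.72, 7.92 and 4.11 CPM in del7_WT livers, with replicates 1 and 3 above 2 and 4 in AUG, del7 and del7_WT. Atf4 itself had 75.4, 71.5, 62.2 and 69.4 CPM in AUG livers against 56.8, 74.3, 57.4 and 78.6 CPM in AUG_WT livers, and 97.1, 73, 70.2 and 85 CPM in del7 livers against 87.8, 70.8, 72.8 and 67.2 CPM in del7_WT livers, within 1.39-fold in every group. Trib3, a pseudokinase induced by ATF4 and CHOP, ran the other way, with 4.45, 6.0, 6.18 and 9.9 CPM in AUG livers against 2.6, 3.03, 8.07 and 12.9 CPM in AUG_WT livers, and 3.87, 7.02, 5.0 and 11.9 CPM in del7 livers against 7.57, 13.1, 5.71 and 8.32 CPM in del7_WT livers. The highest library of Trib3 was replicate 4 in AUG, AUG_WT and del7 and replicate 2 in del7_WT. Ppp1r15a, the phosphatase subunit GADD34 that reverses eIF2 phosphorylation, had 7.02 to 13.3 CPM over the 16 libraries.

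Chac1, which degrades glutathione, had 1.87, 1.58, 2.38 and 0.638 CPM in AUG livers against 1.4, 2.56, 0.682 and 1.52 CPM in AUG_WT livers, and 0.553, 0.888, 1.63 and 0.871 CPM in del7 livers against 2.59, 2.97, 2.86 and 1.52 CPM in del7_WT livers. All del7 values but replicate 3 lay below the lowest del7_WT value. Asns, asparagine synthetase, was close to absent, with 1, 0, 5 and 5 reads in AUG livers against 27, 6, 0 and 1 reads in AUG_WT livers, and 3, 3, 5 and 1 reads in del7 livers against 3, 2, 2 and 4 reads in del7_WT livers. The 27 reads belong to AUG_WT replicate 1. Its levels were 0.0889, 0, 0.476 and 0.399 CPM in AUG livers against 1.89, 0.569, 0 and 0.0798 CPM in AUG_WT livers, and 0.237, 0.242, 0.48 and 0.124 CPM in del7 livers against 0.21, 0.186, 0.26 and 0.358 CPM in del7_WT livers. A count of 0 allows up to 3 reads. Apart from AUG_WT replicate 1 as the highest of its group, no order was detectable for Asns at this depth.

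Of all 45 tested genes, Hspa1b had the widest range within a group, 19-fold, ahead of Derl3 (17.7-fold), Creld2 (10.7-fold) and Hsph1 (9.28-fold). Hsph1 encodes HSP105, an exchange factor of HSP70, and had 108, 16.9, 61.3 and 18.9 CPM in AUG livers against 40.4, 25.7, 36.6 and 23.1 CPM in AUG_WT livers, and 128, 13.8, 116 and 15.8 CPM in del7 livers against 82.1, 14.8, 91.5 and 30.8 CPM in del7_WT livers. In all 4 groups replicates 1 and 3 lay above replicates 2 and 4, and the groups overlapped throughout. The mean of replicates 1 and 3 over that of replicates 2 and 4 was 4.71 times in AUG, 1.58 in AUG_WT, 8.24 in del7 and 3.81 in del7_WT. For Hspa1b, the stress-inducible HSP70, which had 13, 1.58, 6.18 and 1.2 CPM in AUG livers against 2.31, 2.09, 4.89 and 1.2 CPM in AUG_WT livers, and 16.6, 1.05, 19.9 and 2.24 CPM in del7 livers against 6.44, 0.65, 9.73 and 2.68 CPM in del7_WT livers, that ratio was 6.91 times in AUG, 2.19 in AUG_WT, 11.1 in del7 and 4.85 in del7_WT.

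Hspa1a, the neighbouring HSP70 gene, had 0.356, 0.105, 0.285 and 0.16 CPM in AUG livers against 0.281, 0, 0.227 and 0.16 CPM in AUG_WT livers, and 1.03, 0, 1.35 and 0.124 CPM in del7 livers against 0.841, 0.186, 0.909 and 0.447 CPM in del7_WT livers. At 0 to 14 reads per library it was too low to test. Replicates 1 and 3 lay above 2 and 4 in each group, in AUG_WT with 4, 0, 2 and 2 reads, where replicates 3 and 4 differ by library size alone. The 2 genes share 2201 nucleotides at 99.23% identity, so their counts are uncertain. Hspa8, the constitutive HSP70, had 556, 222, 492 and 355 CPM in AUG livers against 468, 212, 354 and 421 CPM in AUG_WT livers, and 696, 284, 754 and 278 CPM in del7 livers against 561, 311, 674 and 389.6 CPM in del7_WT livers. The highest libraries were replicate 1 in AUG and AUG_WT and replicate 3 in del7 and del7_WT. Its transcripts matched those of 6 other genes, and its counts are uncertain for that reason.

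Hsp90aa1, the inducible cytosolic HSP90, had 125, 39.1, 74.1 and 45.6 CPM in AUG livers against 82.4, 64.2, 55.5 and 42.2 CPM in AUG_WT livers, and 118, 54.1, 120.2 and 37.9 CPM in del7 livers against 78.9, 34.3, 118 and 84.4 CPM in del7_WT livers. Replicate 4 was the lowest in AUG_WT, del7 was highest in replicate 3, and the groups overlapped. Dnajb1, the HSP40 partner of HSP70, had 30.9, 14.1, 27.1 and 14.8 CPM in AUG livers against 18, 16.5, 16.3 and 18.4 CPM in AUG_WT livers, and 34.6, 10.8, 35 and 13.4 CPM in del7 livers against 25, 12.2, 30.9 and 13 CPM in del7_WT livers. AUG_WT was the narrowest group for Dnajb1, within 1.13-fold. Chordc1, a co-chaperone of HSP90, had 74.1, 31.5, 55.2 and 29.5 CPM in AUG livers against 47.8, 32.1, 42.5 and 28.7 CPM in AUG_WT livers, and 75.9, 25.3, 66.3 and 29.7 CPM in del7 livers against 61.4, 29.4, 54.3 and 28.3 CPM in del7_WT livers. Further members of these roles were Hsp90ab1 (547 to 947 CPM), the constitutive HSP90, Dnaja1 (58 to 144 CPM), an HSP40, Bag3 (21.1 to 87 CPM), and the co-chaperones Stip1 (34.2 to 83.3 CPM), Ahsa1 (31.9 to 54.2 CPM) and Fkbp4 (56.3 to 179 CPM). For Chordc1 every group placed replicates 1 and 3 on top, by ratios of 2.12 times in AUG, 1.49 in AUG_WT, 2.58 in del7 and 2.0 in del7_WT.

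Among small heat shock proteins, Hspb1, or HSP27, had 4.89, 1.58, 3.9 and 3.11 CPM in AUG livers against 2.24, 1.61, 3.41 and 2.0 CPM in AUG_WT livers, and 7.9, 2.83, 9.51 and 4.23 CPM in del7 livers against 5.81, 4.37, 5.97 and 5.54 CPM in del7_WT livers. All 4 AUG_WT libraries lay below all 4 del7_WT libraries. Cryab, or alpha-B-crystallin, had 3.38, 2.1, 2.09 and 2.31 CPM in AUG livers against 2.81, 3.79, 3.41 and 1.68 CPM in AUG_WT livers, and 3.32, 1.94, 2.4 and 2.61 CPM in del7 livers against 1.75, 2.32, 3.5 and 2.68 CPM in del7_WT livers, with no order shared between groups. Hsf1, the transcription factor of the heat shock response, had 17.6, 14.9, 17.1 and 16.9 CPM in AUG livers against 22.7, 17.4, 19.4 and 15.1 CPM in AUG_WT livers, and 21.3, 16.6, 20.8 and 18 CPM in del7 livers against 20.0, 18.9, 19.6 and 16.8 CPM in del7_WT livers. Replicates 1 and 3 lay above 2 and 4 in all 4 groups, within a range of 1.51-fold or less.

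The mitochondrial chaperonin did not show this order. Hspd1, or HSP60, had 302, 262, 234 and 288 CPM in AUG livers against 135, 221, 318 and 296 CPM in AUG_WT livers, and 265, 270.3, 274 and 214 CPM in del7 livers against 277, 268, 273 and 275 CPM in del7_WT livers. Its 4 del7_WT libraries agreed within 1.03-fold while Creld2 ranged 6.34-fold in the same libraries, and the lowest value of the series was that of AUG_WT replicate 1. Its co-chaperonin Hspe1 ranged from 26.7 to 54.5 CPM over the 16 libraries. Both are among the 12 of 47 genes that match a transcript of another gene at 95% identity or more over at least 200 nucleotides. The others are Ahsa1, Cryab, Dnaja1, Eif2ak3, Hsp90aa1, Hsp90b1, Hspa1a, Hspa1b, Hspa8 and Hspb1. Reads from a matched stretch are uncertain. Positions in the genome were not compared, so a match can be an overlapping gene instead of a copy. Some matches were short, at 100% identity over 252 nucleotides for Cryab, 273 for Hsp90b1 and 222 for Eif2ak3.

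**Figure D2:**
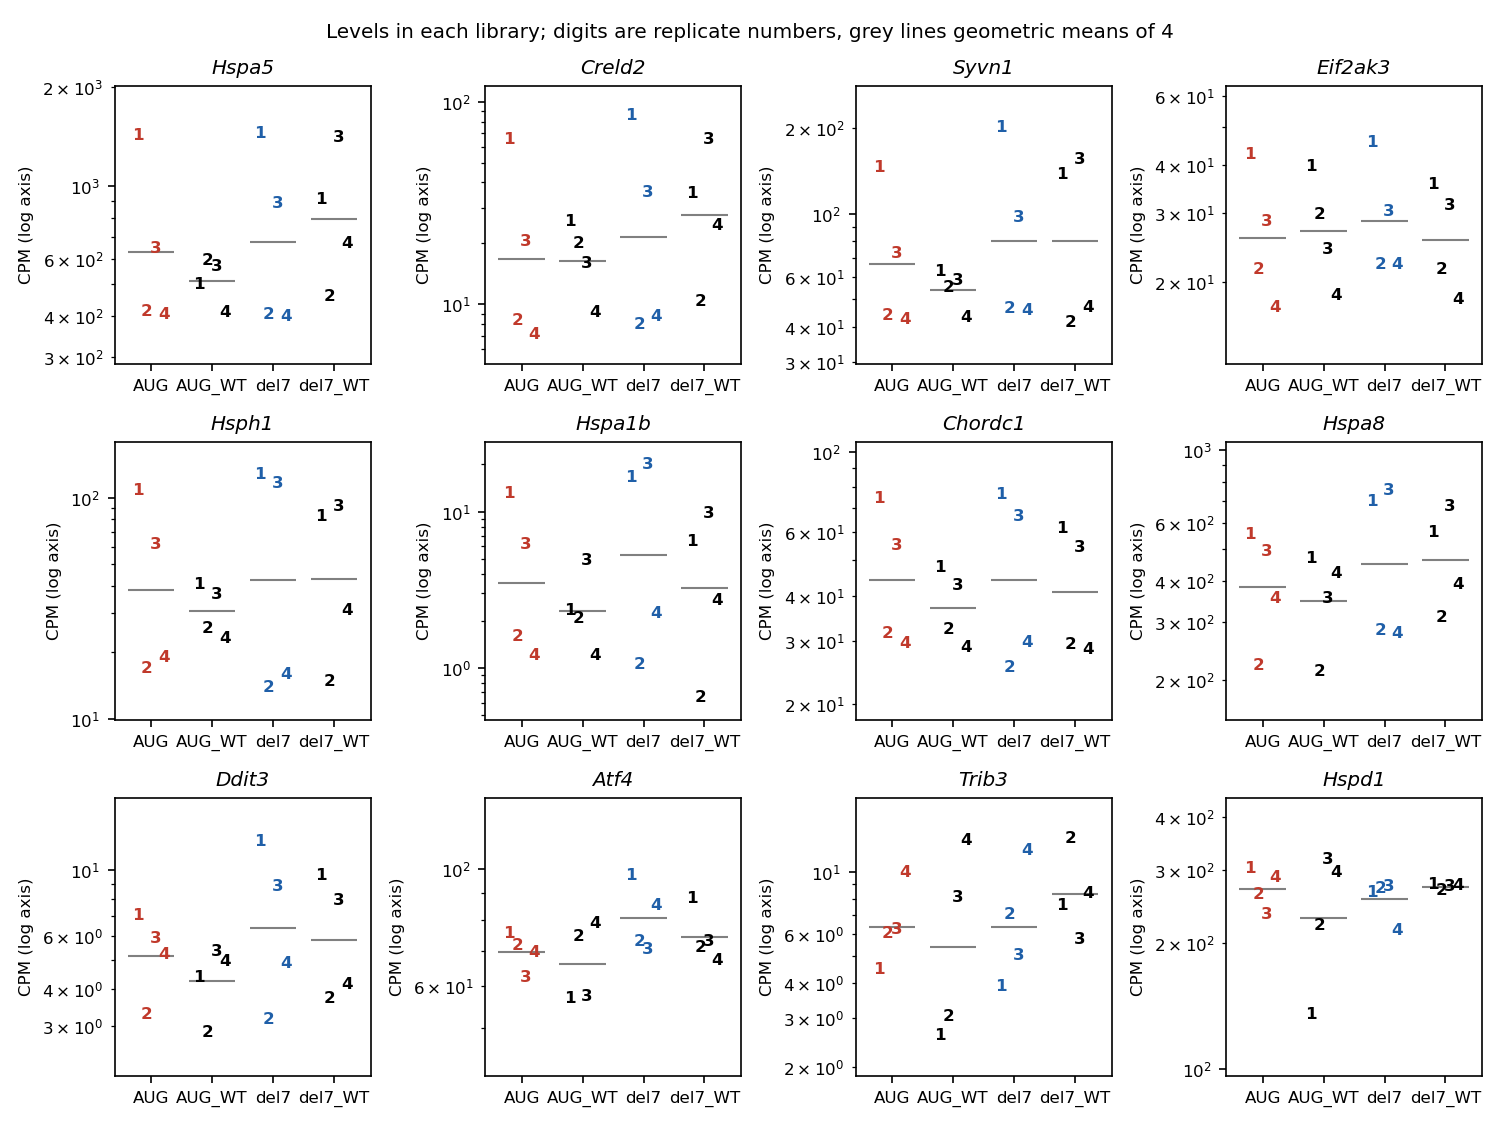
CPM on a log axis for 12 genes in each library, with digits marking the replicate number, grey lines the geometric mean of 4 libraries, and groups in the order AUG, AUG_WT, del7 and del7_WT. Digits 1 and 3 stand above 2 and 4 in every group for Syvn1, Hsph1, Hspa1b and Chordc1, and Trib3 places 4 or 2 on top. Hspd1 spans 1.29-fold in AUG, 1.28-fold in del7, 1.03-fold in del7_WT and 2.36-fold in AUG_WT, where replicate 1 is the lowest.

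Per length of merged exons, the most abundant of the genes were Hsp90ab1 at a median of 236 CPM per kb, Calr at 218, Hsp90b1 at 198, Hspa5 at 137 and Canx at 122 CPM per kb over the 16 libraries. The sensors lay lower, from 43.7 CPM per kb for Xbp1 to 4.38 CPM per kb for Eif2ak3. The lowest were Hspa1b at 0.892, Derl3 at 0.657, Asns at 0.0876 and Hspa1a at 0.0856 CPM per kb.

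Promoter windows from 250 bases before to 50 bases after the start of transcription were at hand for 39 of the 47 genes from RefSeq on GRCm38.p6. Windows are shown for 6 genes picked because they hold a motif, as examples of the ER, heat shock and ATF4 branches, with matches in capitals. Hspa5, Creld2 and Syvn1 hold the ER stress element, written CCAAT, any 9 bases, CCACG on either strand, and Hspa5 also holds TGACGTG, the unfolded protein response element. In Hsph1 and Chordc1 the capitals are the heat shock element, 3 alternating units of GAA and TTC each 2 bases apart, of which overlapping matches run together in Chordc1. Trib3 shows the amino acid response element, TGATG, any base, AA, on the reverse strand.
Hspa5, chr2:34771840-34772139, plus strand: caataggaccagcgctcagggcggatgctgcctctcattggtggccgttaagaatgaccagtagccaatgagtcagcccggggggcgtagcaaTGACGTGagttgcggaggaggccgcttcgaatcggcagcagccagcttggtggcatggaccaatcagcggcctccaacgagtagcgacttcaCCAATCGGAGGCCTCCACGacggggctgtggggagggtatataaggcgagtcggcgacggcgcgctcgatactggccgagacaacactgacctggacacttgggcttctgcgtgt
Creld2, chr15:88819396-88819695, plus strand: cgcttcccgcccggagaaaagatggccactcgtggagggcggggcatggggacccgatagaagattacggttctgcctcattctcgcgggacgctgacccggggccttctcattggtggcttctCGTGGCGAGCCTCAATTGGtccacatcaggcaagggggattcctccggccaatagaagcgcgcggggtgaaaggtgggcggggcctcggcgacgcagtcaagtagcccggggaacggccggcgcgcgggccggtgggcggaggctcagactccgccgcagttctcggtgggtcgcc
Syvn1, chr19:6046326-6046625, plus strand: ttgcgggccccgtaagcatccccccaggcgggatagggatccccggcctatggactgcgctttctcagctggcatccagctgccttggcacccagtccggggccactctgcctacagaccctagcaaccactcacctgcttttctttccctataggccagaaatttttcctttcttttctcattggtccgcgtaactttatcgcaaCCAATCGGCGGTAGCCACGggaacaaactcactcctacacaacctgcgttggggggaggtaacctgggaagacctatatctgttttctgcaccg
Hsph1, chr5:149636266-149636565, minus strand: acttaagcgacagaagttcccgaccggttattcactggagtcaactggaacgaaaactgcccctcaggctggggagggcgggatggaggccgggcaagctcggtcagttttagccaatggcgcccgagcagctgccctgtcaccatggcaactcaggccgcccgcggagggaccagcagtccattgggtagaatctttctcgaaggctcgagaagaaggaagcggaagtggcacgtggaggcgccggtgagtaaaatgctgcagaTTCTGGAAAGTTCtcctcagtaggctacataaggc
Chordc1, chr9:18292017-18292316, plus strand: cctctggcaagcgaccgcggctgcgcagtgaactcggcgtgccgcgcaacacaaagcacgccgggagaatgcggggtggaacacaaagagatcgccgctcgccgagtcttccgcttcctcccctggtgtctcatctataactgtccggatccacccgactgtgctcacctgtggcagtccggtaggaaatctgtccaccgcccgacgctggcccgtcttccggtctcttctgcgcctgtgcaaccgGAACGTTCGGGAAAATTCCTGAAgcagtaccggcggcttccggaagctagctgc
Trib3, chr2:152344011-152344310, minus strand: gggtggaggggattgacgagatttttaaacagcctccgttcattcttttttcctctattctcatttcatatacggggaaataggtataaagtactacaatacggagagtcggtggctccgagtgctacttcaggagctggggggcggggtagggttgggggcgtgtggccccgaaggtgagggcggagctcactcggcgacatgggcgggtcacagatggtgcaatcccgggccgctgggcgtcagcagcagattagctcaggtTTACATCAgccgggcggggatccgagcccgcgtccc

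Counting the first transcribed base as 0, the ER stress element lay at -65 to -47 in Hspa5, at -126 to -108 in Creld2 and at -44 to -26 in Syvn1. Of 17 ER genes with a window, 9 held this element (Calr, Canx, Creld2, Derl3, Dnajc3, Hsp90b1, Hspa5, Pdia6 and Syvn1), and 2 more, Dnajb11 and Herpud1, held ER stress element II, written ATTGG, any base, CCACG. The first was found in 0.119% and the second in 0.0365% of all 32851 windows. TGACGTG was present in 2.01% of all windows and in Hspa5 alone among the 39 genes.

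The heat shock element was found in 4 of the 39 genes, Hsph1, Chordc1, Hspd1 and Hspe1, and in 0.603% of all windows. By branch that was 2 of the 11 heat shock genes with a window and both mitochondrial genes, so 9 of the 11 held no match, Hspa1b and Hspb1 among them. Hspd1 and Hspe1 held it yet did not share the order of Hsph1 and Chordc1. Canx and Calr, with an ER stress element, varied by 1.48-fold and 2.13-fold among del7 livers, against 10.7-fold for Creld2. The amino acid response element was found in Asns, Chac1, Herpud1 and Trib3 and in 3.97% of all windows. A match describes letters in a window and shows neither binding nor a cause.

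No gene of the set passed the test of genotype. AUG livers lay above AUG_WT livers in most, with 37 of 45 genes above 0 and 8 below and a median log2 fold change of 0.17, beside -0.04 for all tested genes, but 0 of 45 passed an adjusted p of 0.05 by edgeR's quasi-likelihood test. The del7 livers showed no such lean, with 21 genes above 0 and 24 below their wild type and a median of -0.02, beside 0.00014 for all tested genes. Again 0 of 45 passed.

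Over all genes 0.0277% were called between AUG and AUG_WT, and 0% between del7 and del7_WT. At an unadjusted p under 0.05 there were 0 of 45 genes in the AUG comparison and 1, Chac1, in the del7 comparison, beside 1270 and 277 of all genes tested. DESeq2 called 0 of the 45 in both. No gene of the set had AUG libraries all on one side of AUG_WT or del7 libraries all on one side of del7_WT, where 2.05% and 4.01% of all tested genes had.

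Among ER genes the median log2 fold change was 0.20 in AUG, with 18 of 19 above 0, and the heat shock genes had 0.22, with 12 of 15 above 0. Without AUG replicate 1 these medians were -0.04 and -0.03, so the lean rests on that library, which also held the 40.3 CPM of acinar markers. With each library left out in turn, the ER median reached up to 0.35 (without AUG_WT replicate 2) and the heat shock median up to 0.41 (without AUG replicate 2). In the same comparison 10 of 10 tested markers of B and plasma cells lay below 0 (median -2.51) as did 6 of 6 of T and NK cells (median -1.99). Their part was not tested, and without AUG_WT replicate 1, the library rich in B and plasma cell markers, the ER and heat shock medians were 0.22 and 0.28. In del7 the ER genes had a median of -0.06, with 6 above 0 and 13 below, and the heat shock genes 0.07, with 11 of 15 above 0. Without del7 replicate 1 those were -0.36 and -0.14, and without del7_WT replicate 3 they were 0.14 and 0.22.

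The smallest p-values of the AUG comparison belonged to Canx, with 0.22 on the log2 scale (SE 0.15, adjusted p = 0.680 by edgeR), Hspb1, at 0.55 (SE 0.39, adjusted p = 0.687), and Hsf1, at -0.17 (SE 0.13, adjusted p = 0.724). AUG livers averaged 722 ± 482 CPM of Hspa5 and AUG_WT livers 517 ± 82.4 CPM (SD, n = 4 each), while del7 livers averaged 782 ± 495 CPM and del7_WT livers 859 ± 406 CPM. Its log2 fold changes of 0.48 (SE 0.47) in AUG and -0.13 (SE 0.47) in del7 were close to or below their errors. In del7 livers Chac1 averaged 0.986 ± 0.458 CPM, against 2.49 ± 0.663 CPM in del7_WT livers (SD, n = 4 each), a log2 fold change of -1.33 (SE 0.45, adjusted p = 1 by edgeR) that did not pass. Ern1, at -0.28 (SE 0.20), and Hspa1b, at 1.05 (SE 0.92), followed it, both also at an adjusted p of 1.

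**Figure D3:**
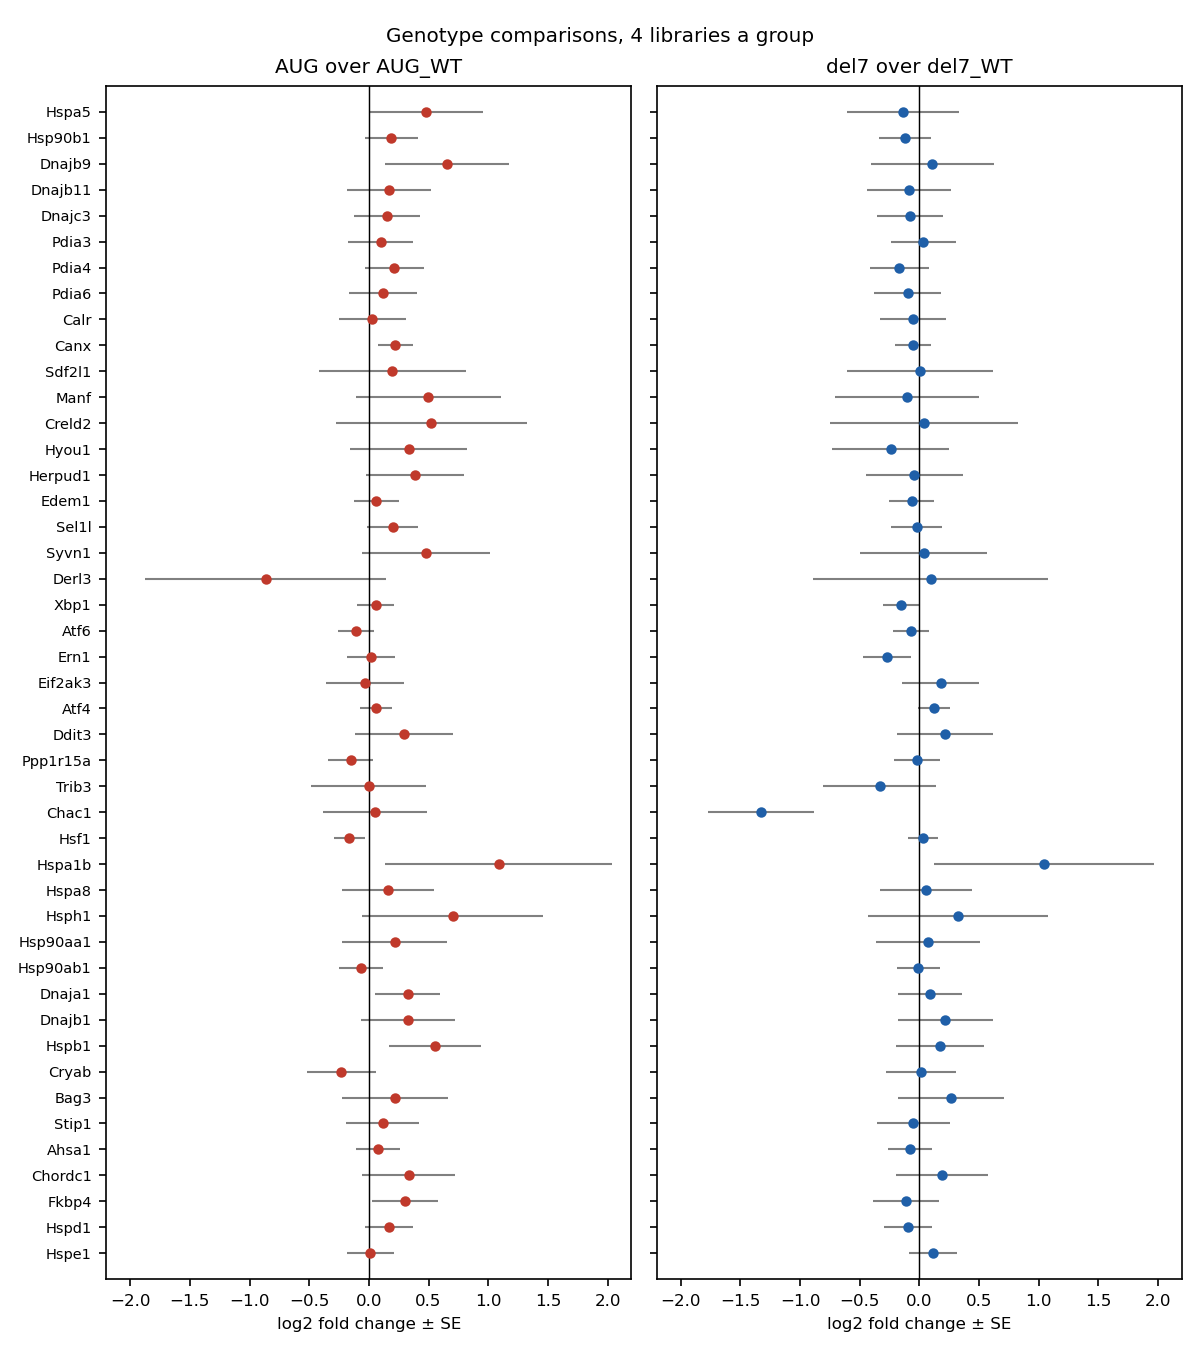
Log2 fold change with its standard error for 45 genes, AUG over AUG_WT on the left and del7 over del7_WT on the right. The widest error bars belong to Hspa1b, Derl3, Creld2 and Hsph1, the genes with the largest spread among replicates.

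The AUG effect minus the del7 effect was tested as a contrast of its own. It had 0 of 45 genes past the threshold, where 0.00693% of all genes passed, and 1 of 45 at an unadjusted p under 0.05, beside 751 of all genes. That gene was Chac1 at 1.38 (SE 0.62, edgeR adjusted p = 0.864), followed by Canx at 0.28 (SE 0.21) and Pdia4 at 0.38 (SE 0.35). The median of the ER genes was 0.28 and of the heat shock genes 0.14, and they were 0.04 and -0.14 without AUG replicate 1 and 0.10 and -0.10 without del7_WT replicate 3, whereas without del7 replicate 1 they were 0.60 and 0.38. DESeq2 called 0 of the 45 here as well.

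Between the wild-type groups, AUG_WT livers lay lower than del7_WT livers in 38 of 45 genes, with a median log2 fold change of -0.24, beside 0.03 for all tested genes. None of the 45 passed edgeR's test, 1 had an unadjusted p under 0.05, DESeq2 called 0, and 0.0347% of all genes passed. Hspb1 had 2.32 ± 0.775 CPM in AUG_WT and 5.42 ± 0.726 CPM in del7_WT (SD, n = 4 each), a log2 fold change of -1.23 (SE 0.39, adjusted p = 0.287). It was the 1 gene of 45 whose wild-type groups did not overlap, as did 3.53% of all tested genes, and near-identical matches to other genes make its counts uncertain. Hyou1, at -0.79 (SE 0.49), and Chac1, at -0.68 (SE 0.43), came next. The medians were -0.30 for ER and -0.22 for heat shock genes and stayed below 0 with any 1 library left out, the ER median between -0.47 (without AUG_WT replicate 2) and -0.12 (without del7_WT replicate 3) and the heat shock median between -0.41 (without del7_WT replicate 2) and -0.10 (without del7_WT replicate 3). Cell type markers moved in the same comparison: hepatocyte markers lay lower in AUG_WT for 9 of 9 genes tested (median -0.28), and B and plasma cell markers lay higher for 10 of 10 (median 2.86), T and NK cell markers for 6 of 6 (2.45), erythroid markers for 6 of 6 (1.98) and Kupffer and macrophage markers for 10 of 10 (0.83). Summed B and plasma cell markers were 97.6 to 1434 CPM in AUG_WT livers and 56.9 to 119 CPM in del7_WT livers. Their part was not tested, and without AUG_WT replicate 1 the ER and heat shock medians were -0.28 and -0.26.

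The number in the sample title was then tested across groups. An edgeR quasi-likelihood F test of the number of the title, with group in the model, called Chordc1 (adjusted p = 0.00855), Eif2ak3 (adjusted p = 0.0143) and Hsph1 (adjusted p = 0.0384), which makes 3 of 45, beside 0.797% of all genes. The highest and lowest of the 4 number means differed by 1.14 log2 units for Chordc1, 1.11 for Eif2ak3 and 2.24 for Hsph1. Dnajb9 (adjusted p = 0.0671), Syvn1 (0.0508), Hspa8 (0.0513), Hspa1b (0.0543) and Ddit3 (0.0643) missed the threshold.

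At an unadjusted p under 0.05 there were 23 of 45 genes (51.1%), beside 14.3% of all tested genes. By branch these were 11 of 15 heat shock genes, 7 of 19 ER genes, 3 of 4 sensors and 2 of 5 of the ATF4 arm, and 0 of the 2 mitochondrial genes. Chordc1 passed with each of the 16 libraries left out, Eif2ak3 did not without AUG replicate 1, AUG replicate 4 or del7 replicate 1, and Hsph1 did not in 13 of the 16 fits. Without AUG_WT replicate 1 the test called 13 of the set, beside 1.77% of all genes. Without AUG_WT replicate 2 it called 7, beside 0.899% of all genes.

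Both replicates 1 and 3 lay above both replicates 2 and 4 in all 4 groups for 6 of the 45 genes, Syvn1, Hsf1, Hspa1b, Hsph1, Hspb1 and Chordc1, beside 1.71% of all tested genes. In at least 3 groups this held for 24 of 45, beside 7.52% of all tested genes. The reverse order held in at least 3 groups for 0 of 45, beside 796 of all 14421 tested genes. The 24 were 11 of 15 heat shock genes, 8 of 19 ER genes, 4 of 4 sensors and 1 of 5 of the ATF4 arm, with 0 of 2 for the mitochondrial chaperonin. The pairing of 1 with 3 was chosen after these values were seen, so the counts describe and do not test.

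By group the order held for 34 of 45 genes in AUG, 7 of 45 in AUG_WT, 38 of 45 in del7 and 27 of 45 in del7_WT, beside 19.3%, 16.1%, 21.6% and 22% of all tested genes. Without AUG_WT replicate 1 in the count, the order held in all 4 groups for 11 of 45 genes, beside 2.5% of all tested genes. Without AUG replicate 1 the order held for 6 of 45, beside 1.96% of all tested genes. Leaving a library out makes the order easier to meet in its group. For Creld2 the ratio of replicates 1 and 3 to replicates 2 and 4 was 5.57 times in AUG, 1.43 in AUG_WT, 7.26 in del7 and 2.89 in del7_WT. For Hspa5 it was 2.53 times in AUG, 1.07 in AUG_WT, 2.89 in del7 and 2.05 in del7_WT, so AUG_WT was the group with the smallest ratio in both.

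ER and heat shock genes moved together from library to library. After each group's mean was taken off, the median Pearson r of log2 CPM over 16 libraries was 0.826 among the 171 pairs of ER genes, 0.790 among the 105 pairs of heat shock genes and 0.760 among the 285 pairs of one with the other, all 285 above 0. These pairs share libraries and scaling factors, so they are descriptions. Leaving out AUG_WT replicate 1 gave 0.884, 0.833 and 0.807, and leaving out AUG replicate 1 gave 0.806, 0.764 and 0.733.

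**Figure D4:**
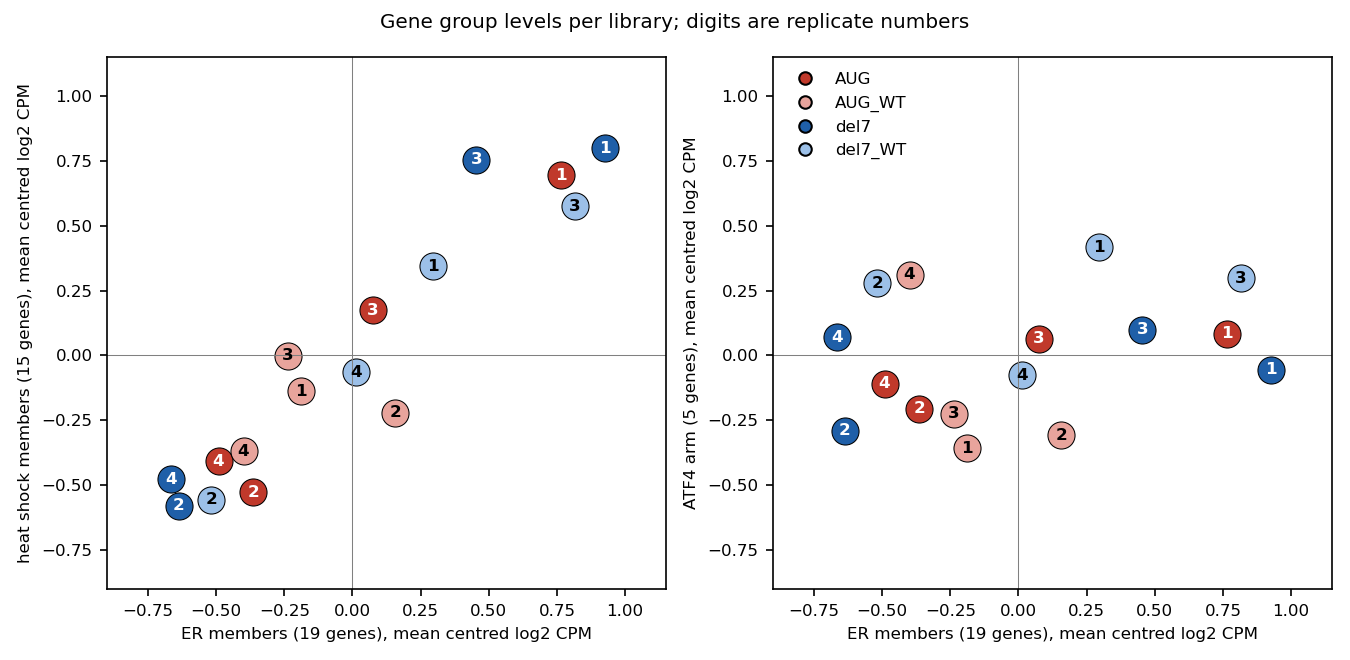
Mean centred log2 CPM of the 19 ER genes (x axis) against that of the 15 heat shock genes (left) and the 5 tested ATF4-arm genes (right), 1 point per library with its replicate number. On the left the libraries form a line from del7 replicates 2 and 4 to del7 replicate 1, AUG replicate 1 and del7_WT replicate 3, and on the right they scatter.

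Averaged per library, the ER level ran from -0.67 in del7 replicate 4 to 0.92 in del7 replicate 1, and the heat shock level from -0.58 in del7 replicate 2 to 0.80 in del7 replicate 1. The AUG_WT libraries lay closest together, from -0.40 to 0.16 for ER genes and from -0.37 to -0.00161 for heat shock genes. Within groups the correlation of the ER and heat shock levels was 0.949, and 0.950 without AUG_WT replicate 1. The ER level had a correlation of 0.857 with that of the sensors and 0.176 with that of the ATF4 arm. Del7 replicate 1, with 4.19 CPM of acinar markers, had an ER level of 0.92 and a heat shock level of 0.80, and AUG replicate 1, with 40.3 CPM, had 0.76 and 0.69. The part of acinar markers in these levels was not tested.

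Of 3 pairs of single genes that stand for the branches, Hspa5 and Hsph1 had a Pearson r of 0.930 and a Spearman rho of 0.941 over 16 libraries. A permutation test of libraries within groups with 100000 resamples, two-sided, gave p = 0.00021 for r (0.00063 adjusted over 3 pairs) and p = 0.00035 for rho (0.00105 adjusted). Without AUG replicate 1 and del7 replicate 1, the libraries farthest from the median of Hspa5, r was 0.926. Hspa5 with Asns had an r of 0.0628 and a rho of 0.144 (permutation p = 0.781 and 0.590, adjusted 0.781 and 0.590), and Hsph1 with Asns an r of 0.193 and a rho of 0.209 (permutation p = 0.315 and 0.395, adjusted 0.473 and 0.590). Asns counts of 0 to 27 reads limit these last 2 pairs, and the pairs were chosen with earlier results known. Libraries were permuted as if independent between groups. Yet replicates 1 and 3 lay above 2 and 4 in 3 groups for Hspa5 and in 4 for Hsph1. The p-values of Hspa5 with Hsph1 can therefore be too small.

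Closest to Hspa5 in this measure were Manf (r = 0.985), Creld2 (0.977), Stip1 (0.956), Syvn1 (0.953) and Hyou1 (0.953), and closest to Hsph1 were Hspa1b (0.970), Chordc1 (0.966) and Dnajb1 (0.964). Stip1, the adaptor that joins HSP70 to HSP90, and Bag3, an HSP70 exchange factor (0.950 with Hspa5), are cytosolic. Ddit3 had 0.767 with Hspa5 and 0.875 with Hsph1, whereas Atf4 had 0.254 and 0.126 and Chac1 0.162 and 0.199. Trib3 had -0.644 and -0.601. Hspd1 had 0.142 and 0.0546.

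**Figure D5:**
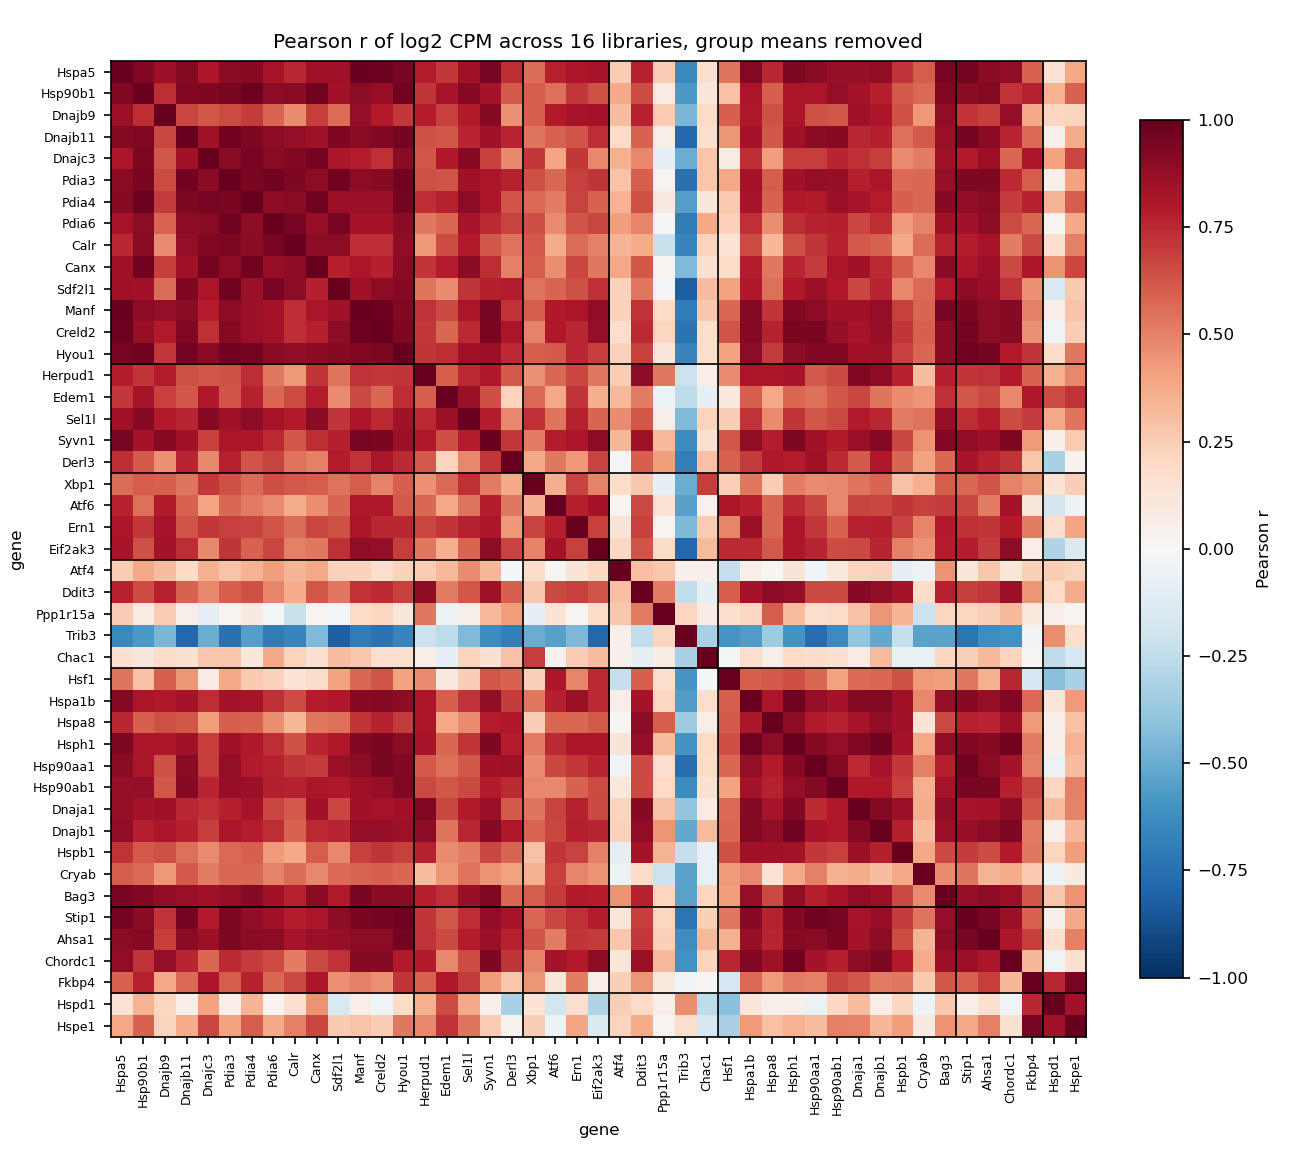
Pearson r between log2 CPM of all pairs of the 45 tested genes over 16 libraries with group means removed, in blocks by role. ER and heat shock blocks are red within and between each other, Trib3 is a blue band, and Atf4, Ppp1r15a, Chac1 and the mitochondrial chaperonin are pale.

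Further genes of the same pathways, 114 in 6 lists, were tested in the same fits. Of the 108 that were tested, 0 were called in any of the 4 group comparisons and 1 in the test of replicate number, Sec61g (edgeR adjusted p = 0.0394), a subunit of the channel through which proteins enter the ER. Sec61g had 3.65, 1.26, 2.19 and 0.878 CPM in AUG livers against 1.54, 1.42, 1.25 and 0.718 CPM in AUG_WT livers, and 4.27, 1.45, 2.02 and 0.871 CPM in del7 livers against 2.94, 1.49, 2.34 and 1.16 CPM in del7_WT livers. At an unadjusted p under 0.05 in that test there were 19 of the 108, beside 14.3% of all tested genes, a share near that background. By list these were 3 of 18 further ER folding genes, 4 of 20 degradation and secretion genes, 8 of 34 cytosolic chaperone genes, 1 of 17 ATF4-regulated genes, 3 of 11 sensor and eIF2 genes and 0 of 8 mitochondrial chaperone genes. The order of replicates 1 and 3 above 2 and 4 was also counted in these lists. In at least 3 groups it held for 5 of 18 ER folding, 5 of 20 degradation and secretion and 7 of 34 cytosolic chaperone genes. It held for 2 of 17 ATF4-regulated, 2 of 11 sensor and eIF2 and 0 of 8 mitochondrial chaperone genes, beside 7.52% of all tested genes. Cacybp, which had the second smallest p of these, had an adjusted p of 0.0538.

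In the AUG comparison the 2 smallest p-values of these lists were those of Slc3a2 (log2 fold change 0.33, SE 0.13, edgeR adjusted p = 0.561) and Mthfd2 (-1.69, SE 0.70), whose AUG_WT replicate 1 had 9.05 CPM beside 0.455 to 1.52 CPM in the other AUG_WT libraries. In the del7 comparison they were those of Fkbp5 (-0.57, SE 0.21) and Sesn2 (-0.27, SE 0.13), both at an adjusted p of 1. Slc3a2 (0.46, SE 0.18) and Trap1 (0.40, SE 0.20) led the difference of the effects, and Cebpb (0.44, SE 0.14, adjusted p = 0.287) and Mthfd2 (1.97, SE 0.71) the wild-type comparison.

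The level of 17 core clock genes had a correlation of -0.127 with the ER level over the 16 libraries with group means removed, and that of 11 immediate early genes -0.0856. The clock list mixes genes known to peak at opposite times of day, such as Arntl and Dbp. A shift in clock phase can therefore cancel in its mean, so the value of -0.127 does not show whether time of day differed. The test of replicate number called 0 of the 17 clock genes, beside 0.797% of all genes. At an unadjusted p under 0.05 there were 3 of the 17 (17.6%), beside 14.3% of all tested genes, a share near that background. The highest and lowest number means of the 17 differed by a median of 0.88 log2 units, beside 0.39 for all tested genes. Over the 16 libraries, 2.82% to 3.93% of reads were unmapped, 9.23% to 15% multimapped and 21.8% to 35.0% lay outside genes. What replicate numbers share across groups cannot be told from the labels, and its part in these orders was not tested.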

How the data were processed

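Total RNA of mouse liver was depleted of ribosomal RNA and sequenced from directional libraries, per the labels' protocols. The submitters' processing notes name cutadapt 2.10, STAR 2.7.9a and the build GRCm39, without an annotation release. The table that the authors deposited holds raw counts per gene, and in all 16 samples it matched the column of their own tables for the reverse strand. Identifiers were paired with names through GENCODE M21, which named 52081 genes; Ddit3 has 2 identifiers, of which the one with counts was used. The telomerase RNA gene itself is not analysed here, so genotype was not checked against its reads.

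Counts were fitted in edgeR 4.0.16 (R 4.3.3) with filterByExpr at a minimum count of 10, TMM scaling, 1 group-means model of all 16 libraries (12 residual degrees of freedom) and glmQLFTest, two-sided, with Benjamini-Hochberg adjustment over 14421 genes and a threshold of 0.05. The test of replicate number added that factor (9 residual degrees of freedom). A standard error is the log2 fold change over the root of its F statistic. Log2 CPM carries a prior count of 2. Near-identical matches in transcripts of other genes were sought with blastn 2.17.0, and the fits were tested on simulated data. DESeq2 1.42.0 and other alternatives are given at the end.

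The genes, their lists and the tests were chosen with earlier results of these data known. Values in every library are given for a fixed choice of members by role, for members past a threshold and for the 3 smallest p-values of each comparison. Replicate numbers were not taken as pairs in the comparisons of groups. Intervals of CPM were not computed; a count of 0 allows 3 reads, which covers counting error only.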

Additional observations from a re-analysis of the deposited data

Results flagged for a closer look

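For 29 of the genes with values given per library, 116 groups of 4 libraries were checked for a library standing off from the other three, which chance alone finds in about 1 group in 20. On the log2 CPM scale 2 were found, and in CPM, a scale chosen after seeing the data, these and 2 more, Derl3 in del7_WT replicate 3 (6.62 CPM) and Xbp1 in AUG_WT replicate 2 (189 CPM). Hsp90b1 in AUG livers had 1162 CPM in replicate 1, and the gap to the next library took 0.834 of the group's log2 range. Hspd1 in del7 livers had 214 CPM in replicate 4, the lowest, with a gap of 0.866 of the log2 range. Replicate 1 was the AUG library with 40.3 CPM of pancreatic acinar markers, and its part in the Hsp90b1 value was not tested.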

How the results depend on the processing

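Apart from the counts of replicate order, 769 values were recomputed under alternatives, and 708 were scored as the same. The medians of ER and heat shock genes were scored as the same even where their sign changed. With 1 library left out, the ER median ranged from -0.04 to 0.35 in AUG and from -0.36 to 0.14 in del7. The heat shock median ranged from -0.03 to 0.41 in AUG and from -0.14 to 0.25 in del7. In all 4 group comparisons 0 of the 45 genes were called under each alternative run. Counts over all genes moved with DESeq2, to 9 for AUG, 1 for del7, 6 for the difference of the effects and 70 for the wild types. The wild-type count of 5 was 11 with no filter, 3 with unstranded counts and 13 with the 2 groups alone. Deviations from group means in same-numbered libraries had r of -0.157 to 0.351 between AUG and AUG_WT and of 0.0919 to 0.283 between del7 and del7_WT, where numbers 1, 2 and 3 correlated best with their own; in neither line did every pair exceed 0.1, so the numbers were not used as pairs. Fits with a replicate block called 4 genes for AUG, 0 for del7, 2 for the difference of the effects and 1 between wild types. With 1 library left out these counts ranged from 3 to 5 for AUG, 1 to 2 for that difference and 1 to 10 between wild types. The test of replicate number called 3 of the set, against 6 with no filter, 5 with unstranded counts, 16 with DESeq2 and 1 to 13 with 1 library left out. Over all genes it called 0.797%, against 0.294% with no filter, 0.779% with unstranded counts and 5.01% (723 genes) with DESeq2. With 1 library left out it called 7 to 258 of all genes (0.0477% to 1.77%). Counted without AUG_WT replicate 1, an alternative chosen after seeing the data, 11 genes had replicates 1 and 3 on top in all groups, beside 2.5% of all tested genes. Without AUG replicate 1 there were 6, beside 1.96% of all tested genes. The weak correlation of Hspa5 with Asns turned to -0.189 with the replicate block, and ranged from -0.0423 (without AUG replicate 2) to 0.183 with 1 library left out. The cause of these changes was not tested. Depth limits Asns, Hspa1a, Derl3 and Chac1.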

Other observations

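Immediate early genes are known to respond within minutes to stimuli. Of 11 tested for replicate number, Egr1 (edgeR adjusted p = 0.0461) and Dusp1 (adjusted p = 0.0394) passed, beside 0.797% of all genes, and 8 had an unadjusted p under 0.05, beside 14.3% of all genes. Egr1, a zinc finger transcription factor, had 6.13, 23.1, 6.37 and 34.6 CPM in AUG livers against 26.9, 23.9, 6.14 and 40.5 CPM in AUG_WT livers, and 9.8, 16.6, 5.76 and 23.8 CPM in del7 livers against 11.6, 10.7, 8.05 and 20.5 CPM in del7_WT livers, in replicates 1 to 4. Replicate 4 was the highest library of Egr1 in every group. Dusp1, a phosphatase of MAP kinases, had 26.9, 12.5, 14.6 and 48.9 CPM in AUG livers against 24.8, 11.4, 18.9 and 58.2 CPM in AUG_WT livers, and 28.1, 11.46, 21.4 and 18.9 CPM in del7 livers against 28.8, 8.08, 23.6 and 35.8 CPM in del7_WT livers. Replicate 2 was the lowest for Dusp1 in every group. Both genes were named after their values were seen.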
